A study of Homo sapiens with 24 samples.

Results

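The data are 2 lists of MLL4 binding sites in the human bladder cancer cell line UMUC1, 1 from cells that carry a catalytic mutant of UTX and 1 from cells that carry the wild-type protein. MLL4, also called KMT2D, is a histone methyltransferase that places single methyl groups on lysine 4 of histone H3 (H3K4me1), a mark of enhancers. It is the scaffold of an enhancer complex in which UTX, also called KDM6A, is a subunit with a second enzymatic activity, the removal of methyl groups from lysine 27 of histone H3 (H3K27me3, a mark of silent chromatin). Acetylation of the same lysine (H3K27ac) marks active enhancers and promoters. Both MLL4 and UTX are often mutated in bladder cancer. The comparison asks where MLL4 sits on chromatin when the UTX beside it lacks an intact catalytic site.

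The 2 lists were the narrow peak lists of the samples labelled for MLL4 in the HEAA and the WT line, out of 24 samples in the series, of which 18 had a list and 6 were inputs. The HEAA line stably expressed UTX with the substitutions H1146A and E1148A from a pSIN-puro construct, the WT line wild-type UTX from the same construct, and the EV line held the empty vector. All 3 lines were grown alike and harvested 3 days after plating. Neither the promoter of the construct nor whether a line is 1 clone or a pool is given by the labels, which also leave out the state of the cells' own UTX. The UTX lists held 2854 peaks in HEAA and 2565 in WT, against 31 in EV. For MLL4 and UTX, chromatin was cut with micrococcal nuclease to fragments of mostly 300 to 900 bp and then sonicated. The histone mark samples are labelled as sonicated chromatin, with no micrococcal nuclease step given. Overlaps of MLL4 peaks with histone regions therefore compare 2 kinds of preparation. There was 1 MLL4 library a line, so no difference between the lines has a replicate error, and the values describe these lists. Lists grow with read depth and with the yield of the immunoprecipitation. The depth is unknown, so the missing call of a peak means only that the caller's threshold was not reached. Positions are on hg19.

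The HEAA list held 1125 MLL4 peaks and the WT list 898, against 133 in EV. They covered 262 kb and 205 kb, and 29.7 kb in EV. Peaks were narrow in both, with a median width of 210 bp in HEAA and 205 bp in WT. The median fold enrichment over the caller's background was 6.43 in HEAA and 5.97 in WT, as the authors' caller gave it. HEAA had more peaks than WT on each of the 20 chromosomes with peaks, by a ratio of 1.06 on chromosome 6 to 1.62 on chromosome 8. None of the 3 MLL4 lists had a peak on chromosome 20, 21 or 22. Whether MLL4 was bound there cannot be told from these lists, and their totals are read as those of the other chromosomes. These chromosomes held 248 of the UTX peaks in HEAA (8.69%) and 205 in WT (7.99%), and 7.01% and 6.90% of the H3K4me1 regions. The UTX sites and regions set against MLL4 were therefore taken from the other chromosomes only.

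Overlap with the WT list was found for 466 of the 1125 peaks in HEAA (41.4%, 95% Wilson interval 38.6% to 44.3%), which left 659 HEAA-only peaks. It was found for 466 of the 898 peaks in WT (51.9%, 48.6% to 55.1%), which left 432 WT-only peaks. When the peaks of both lists were merged into 1556 sites, 42.4% were called in HEAA and not WT, 27.8% in WT and not HEAA, and 29.9% in both. The overlap was rarely marginal. It covered a median of 97.6% of the narrower peak, and at least 50% of it in 460 of the 467 overlapping pairs. The smallest overlap was 27 bp, on chromosome 19, between a HEAA peak from 1383411 to 1383660 and a WT peak from 1383241 to 1383437. Just outside the rule lay a pair on chromosome 5 with 13 bp between the HEAA peak from 136570838 to 136571029 and the WT peak from 136571043 to 136571287. Few such neighbours existed. Only 18 of the 659 HEAA-only peaks (2.73%) had a WT peak within 1 kb, and 19 of the 432 WT-only peaks (4.40%) had a HEAA peak within 1 kb.

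Whether a peak was shared followed its strength. Ranked by q value, the strongest 10% of HEAA peaks were in the WT list in 85.0% of cases (Wilson interval 77.2% to 90.4%), and the weakest 10% in 16.1% (10.4% to 24.0%). The strongest 10% of WT peaks were in the HEAA list in 86.7% (78.1% to 92.2%), and the weakest 10% in 31.5% (22.7% to 41.7%). In HEAA the share was 63.4% in the next 10% and 49.6% in the one after, and in WT the next 10% had 71.1%. HEAA-only peaks had a median fold of 6.19 and a median width of 197 bp, and shared peaks 6.92 and 235 bp in the same list. In the WT list, WT-only peaks had 5.77 and 191 bp, and shared peaks 6.23 and 226 bp. Line-only peaks were not confined to the weak end, since 254 of the 659 in HEAA (38.5%) and 156 of the 432 in WT (36.1%) lay in the stronger 50% of their list by q.

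**Figure D1:**
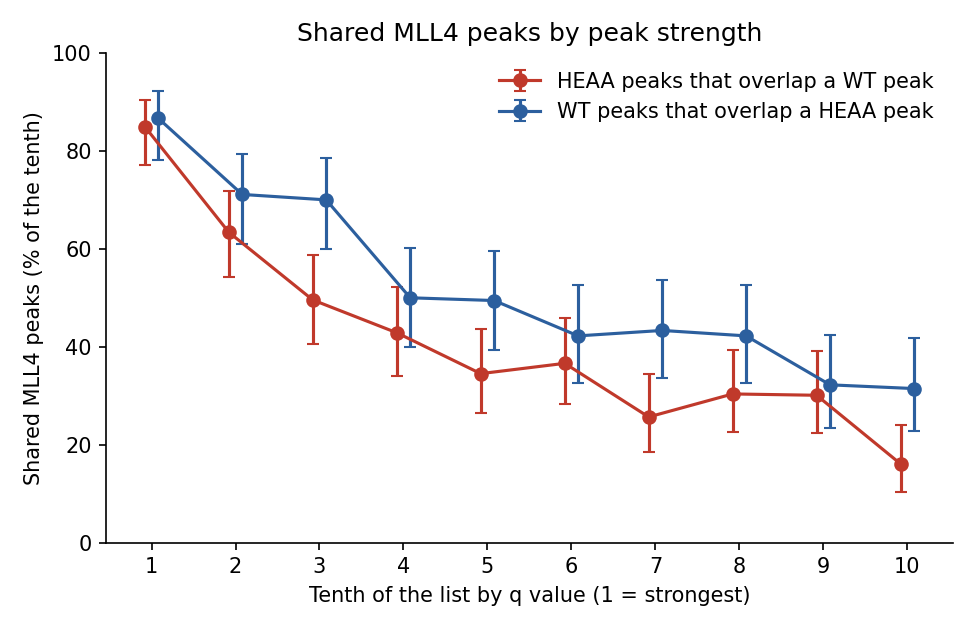
Share of MLL4 peaks that overlap a peak of the other line, in steps of 10% of each list ranked by q value, with 95% Wilson intervals. The share is 85.0% in HEAA and 86.7% in WT among the strongest peaks, and 16.1% and 31.5% among the weakest.

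The strongest shared sites were bound in both lines at nearly the same base. The site ranked first by fold enrichment over both lists lay on chromosome 12, with a HEAA peak from 123555174 to 123555502 (18.3-fold) and a WT peak from 123555186 to 123555464 (14.0-fold), and summits 7 bp apart. The second lay at chr9:114932548-114932873 in HEAA (14.4-fold, against 10.5-fold in WT, summits 17 bp apart). The third, at chr19:33789391-33789697, had 11.3-fold in HEAA and 10.1-fold in WT, with summits 4 bp apart. The sixth, at chr2:129062684-129063157 (13.2-fold in HEAA and 9.48-fold in WT), had the widest summit distance of the 10, at 61 bp. The remaining 6 were at chr1:161053400-161053667, chr1:224691395-224691699, chr1:204412427-204412674, chr3:37987502-37987879, chr16:87979389-87979671, and chr2:9970554-9970800. All 10 had a UTX peak in HEAA and in WT. All 10 were acetylated in each of the 6 H3K27ac libraries, and 6 had an MLL4 peak in EV. H3K4me1 overlapped 7 of them in HEAA, 8 in WT and 9 in EV. The chromosome 9 and chromosome 3 sites had it in WT and EV and not in HEAA, the chromosome 2 site at 9970554 in HEAA and EV and not in WT, and the chromosome 16 site in no line.

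Over all shared pairs the fold enrichments of both lines were only loosely related. Across the 466 pairs, which share the cell line, the antibody and the caller, Pearson's r was 0.460 and Spearman's rho 0.397, given as a description. Only peaks called in both lists enter, which limits the range of folds and can lower both values. A small group stood apart at low fold. All 9 HEAA peaks and all 10 WT peaks with a fold under 3 were shared, were called for MLL4 in EV as well, and lay on chromosomes 1, 6, 7 and 16. None had UTX, H3K4me1 or H3K27ac (library 1) in its own line. The widest peak of both lists was one of them, at chr6:58778151-58779319, 1169 bp wide in HEAA (1.92-fold) and in WT (1.91-fold) and 1173 bp in EV (2.44-fold). Without these pairs r was 0.387 and rho 0.361 over 457 pairs.

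**Figure D2:**
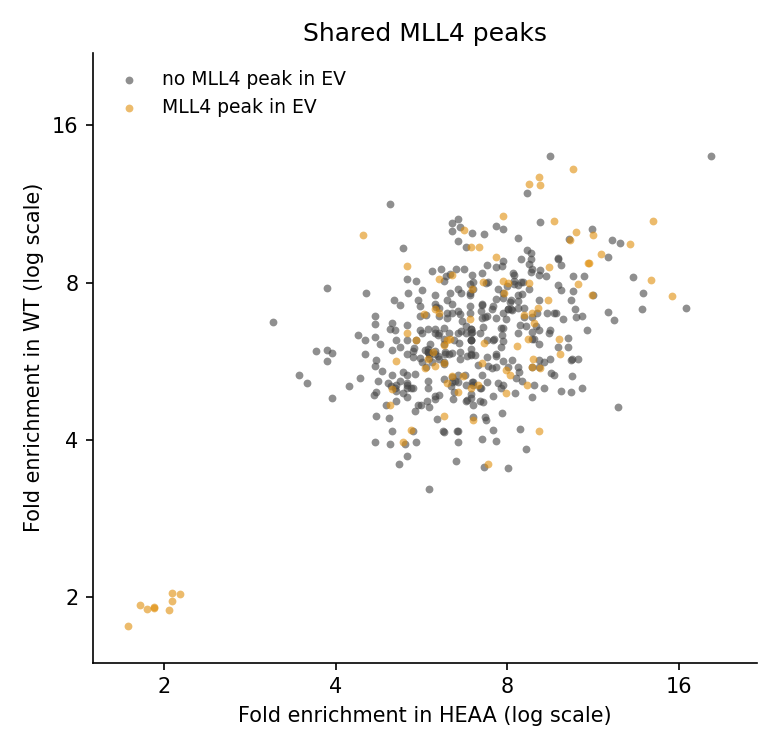
Fold enrichment of the 466 shared MLL4 peaks in HEAA (x axis) and in WT (y axis), both on log scales; orange points also have an MLL4 peak in EV. The 457 pairs with both folds of at least 3 reach 18.3 in HEAA and 14.0 in WT, and a separate group near 2 consists of peaks called in all 3 lines.

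Summit positions were close in shared peaks. The summit of a peak is the base with the most fragments, and its distance between the lines was 25 bp at the median (quartiles 10 and 52 bp, n = 466). It was at most 50 bp in 72.3% of pairs, at most 100 bp in 91.4% and over 200 bp in 7 pairs. The HEAA summit had the higher coordinate in 238 pairs and the WT summit in 216, and 12 pairs had the same base, so the counts on the sides were close. Overlap itself limits how far summits of such narrow peaks can part. The distance was larger in weaker peaks, with a median of 39 bp in the weakest of 3 equal groups by q, 20 bp in the middle one and 20.5 bp in the strongest. For scale, UTX summits of HEAA and WT lay 28 bp apart at the median (n = 1579). MLL4 and UTX summits of the same line also lay 28 bp apart, in HEAA (n = 750) and in WT (n = 580). Between lines, MLL4 summits thus parted about as far as MLL4 and UTX summits did within a line. Summits of MLL4 in HEAA and in EV were 19.5 bp apart (n = 104), and those in WT and EV 25 bp (n = 101).

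In the 5 pairs with the most distant summits at least 1 of the peaks was 374 bp wide or wider, against medians of 235 bp in HEAA and 226 bp in WT over all shared peaks. The largest distance, 386 bp, was on chromosome 11, between a HEAA peak from 10921087 to 10921361 (5.34-fold) and a WT peak from 10921128 to 10921615 (5.04-fold). The next was 336 bp on chromosome 11, where the HEAA peak ran from 75946509 to 75947015 and the WT peak from 75946482 to 75947005, nearly the same interval with summits toward opposite ends. Then came 308 bp on chromosome 17 (HEAA from 43248400 to 43249042), 294 bp on chromosome 2 (HEAA from 157257272 to 157257464) and 251 bp on chromosome 16 (HEAA from 68268252 to 68268509). All 5 had H3K27ac in all 6 libraries, and 3 of the 5 had an MLL4 peak in EV.

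**Figure D3:**
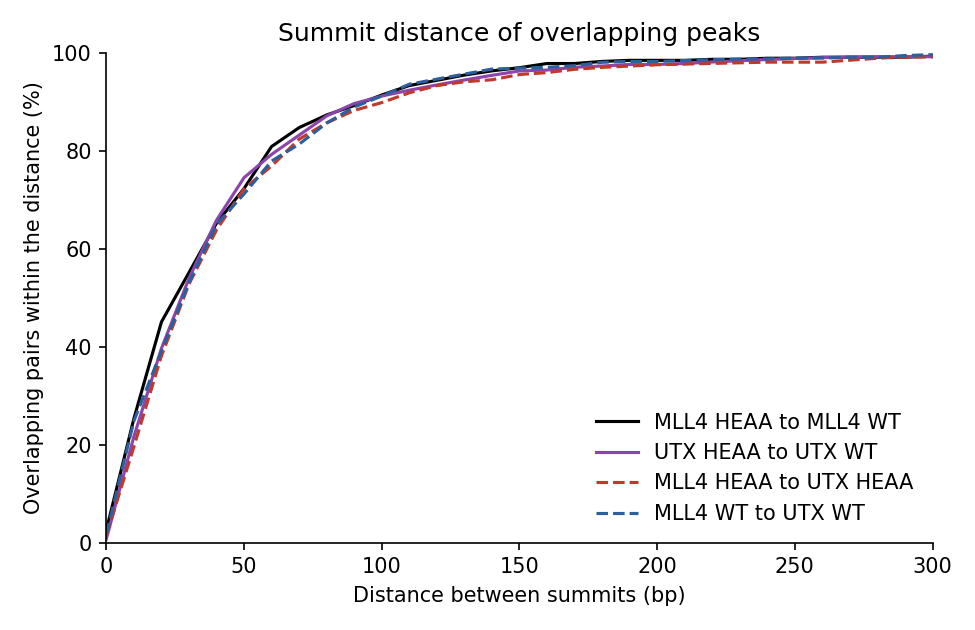
Cumulative share of overlapping pairs whose summits lie within a given distance in bp. The lines for MLL4 of HEAA against WT, UTX of HEAA against WT, and MLL4 against UTX within a line run close together, with medians of 25 bp for MLL4 between lines and 28 bp for the others.

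UTX was called most often at shared MLL4 peaks and, at line-only peaks, more often in the line that had the MLL4 peak. Shared MLL4 peaks, measured at the HEAA peak, had a UTX peak in 74.7% in HEAA (Wilson interval 70.5% to 78.4%) and 72.7% in WT (68.5% to 76.6%). At HEAA-only MLL4 peaks UTX was called in 61% in HEAA (57.2% to 64.7%) and 47.5% in WT (43.7% to 51.3%). At WT-only peaks it was called in 50.0% in HEAA (45.3% to 54.7%) and 56.0% in WT (51.3% to 60.6%). The difference between the lines, HEAA minus WT, was 13.5 percentage points at HEAA-only peaks (95% interval over sites 9.76 to 17.3), -6.02 points at WT-only peaks (-10.6 to -1.47) and 1.93 points at shared peaks (-1.01 to 4.87). These intervals cover counting error over sites, and with 1 list a line the lines themselves were not tested. UTX in EV was at 0.858% of shared, 0.303% of HEAA-only and 0.231% of WT-only peaks.

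The UTX lists differ by themselves, and that background has to stand beside the counts. Of 3379 merged UTX regions on the MLL4 chromosomes, 30.4% were called in HEAA and not WT and 23% in WT and not HEAA. Among the 443 HEAA-only MLL4 peaks with UTX in either line, 130 had it in HEAA and not WT (29.3%) and 41 in WT and not HEAA (9.26%). Among the 280 such WT-only peaks, 38 had it in HEAA and not WT (13.6%) and 64 in WT and not HEAA (22.9%). The share called in the line of the MLL4 peak alone was thus close to the background in both classes, and the share called in the opposite line alone was below it. At the 368 shared peaks with UTX both shares were below the background, at 7.88% and 5.43%. In most line-only peaks with UTX, UTX was called in both lines, 272 of 443 for HEAA-only and 178 of 280 for WT-only. A UTX call without an MLL4 call in a line was therefore frequent. It was found at 313 HEAA-only MLL4 sites, with a WT UTX peak and no WT MLL4 peak, and at 216 WT-only sites with the reverse. Whether MLL4 was bound there below the caller's threshold was not tested.

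Counted from the UTX side, the same overlaps gave these shares. Of 1027 merged UTX regions called in HEAA and not WT, 129 held an MLL4 peak of HEAA alone (12.6%) and 37 one of WT alone (3.60%). Of 778 UTX regions called in WT and not HEAA, 41 held an MLL4 peak of HEAA alone (5.27%) and 62 one of WT alone (7.97%). UTX regions called in both lines held an MLL4 peak of both in 20.5% of cases, of HEAA alone in 16.9% and of WT alone in 11.2%. As a share of all UTX regions, MLL4 of a line alone was no more frequent where UTX was called in that line alone (12.6% and 7.97%) than in both. No MLL4 peak lay in 810 of the 1574 regions with UTX in both lines. For HEAA alone and WT alone the counts were 832 of 1027 and 654 of 778. At the others, UTX of HEAA alone went most often with MLL4 of HEAA alone (129, against 29 in both and 37 in WT alone). UTX of WT alone went most often with MLL4 of WT alone (62, against 21 in both and 41 in HEAA alone). UTX in both went most often with MLL4 in both (322, against 266 and 176). UTX and MLL4 were profiled from chromatin prepared by the same protocol, and the labels give 1 micrococcal nuclease input a line. The part of a shared input in these shares was not tested.

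**Figure D4:**
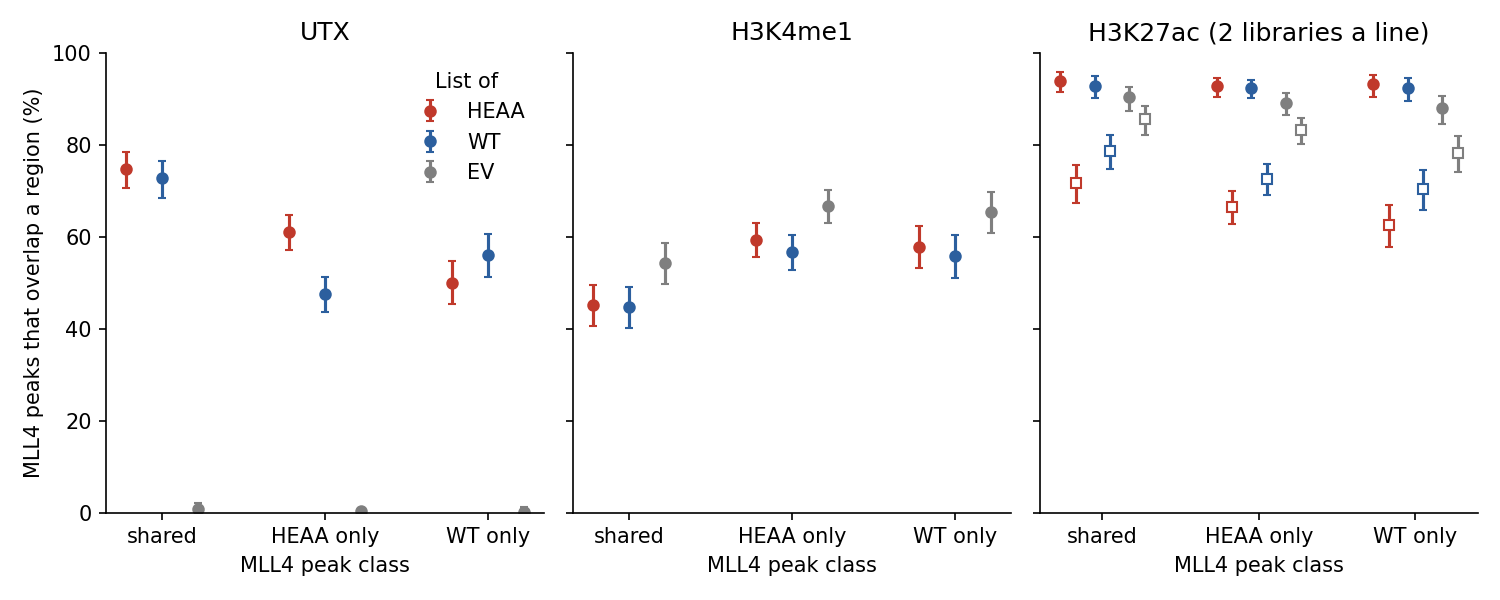
Share of MLL4 peaks of each class that overlap a UTX, H3K4me1 or H3K27ac region in HEAA (red), WT (blue) and EV (grey), with 95% Wilson intervals; for H3K27ac, filled circles are library 1 and open squares library 2. UTX changes order between HEAA-only peaks (61% in HEAA, 47.5% in WT) and WT-only peaks (50.0% and 56.0%), and H3K4me1 keeps the same order in every class. So does each H3K27ac library by itself, but HEAA is above WT in library 1 and below it in library 2.

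H3K4me1, the mark that MLL4 places, did not follow the line in which MLL4 was called. HEAA-only MLL4 peaks overlapped an H3K4me1 region in 59.3% in HEAA (55.5% to 63.0%) and 56.6% in WT (52.8% to 60.3%), against 66.8% in EV. WT-only peaks did so in 57.9% in HEAA (53.2% to 62.4%) and 55.8% in WT (51.1% to 60.4%), against 65.5% in EV. The difference, HEAA minus WT, was 2.73 points at HEAA-only peaks (interval over sites -0.756 to 6.22) and 2.08 points at WT-only peaks (-2.09 to 6.26), so its sign was the same in both. At shared peaks it was 0.429 points (-3.69 to 4.55). This last value moved with the settings, to 4.08 points (0.0822 to 8.07) with H3K4me1 regions of a −log10 q of at least 5 and to 2.58 points (-1.71 to 6.86) at the WT peak, a setting added after seeing the data. Across all 180260 merged H3K4me1 regions on these chromosomes, 19.7% were called in HEAA and not WT and 15.6% in WT and not HEAA. Among the 451 HEAA-only peaks with the mark in either line, these shares were 17.3% and 13.3%. For the 288 WT-only peaks they were 16.3% and 13.2%. All are near the background. UTX sites without any MLL4 peak gave 14.7% and 13.6%.

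Individual line-only sites with H3K4me1 in the same line did exist. Of the HEAA-only peaks, 78 had H3K4me1 in HEAA and not WT and 60 had the reverse. The 5 strongest of the 78 lay at chr9:137271972-137272170 (9.84-fold), chr10:28664687-28664911 (9.35-fold), chr12:67877651-67877885 (9.10-fold), chr17:38703836-38704025 (9.09-fold) and chr1:40360846-40361042 (8.86-fold). Of these 5, 3 had H3K4me1 in EV too, so the WT line alone lacked it there. All 5 had H3K27ac in both WT libraries, and 3 had it in both HEAA libraries. Of the WT-only peaks, 38 had H3K4me1 in WT and not HEAA and 47 had the reverse. The 5 strongest of the 38 lay at chr1:41365198-41365516, chr18:76822847-76823082 (9.33-fold each), chr9:111207023-111207216 (7.93-fold), chr2:131094583-131094868 (7.79-fold) and chr11:70995000-70995193 (7.63-fold). EV had H3K4me1 at 4 of these 5.

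Around the MLL4 summit, H3K4me1 regions formed a gap with shoulders in both lines. At shared peaks the summit base lay inside an H3K4me1 region in 32.4% in HEAA and 31.5% in WT, against 39.9% in EV. At 0.5 kb from the summit 80.6% of positions in HEAA and 80.5% in WT lay inside one, and at 3 kb 41.5% and 42.0%. At HEAA-only peaks the summit value was 51.7% in HEAA and 50.5% in WT, and at WT-only peaks 50.9% in HEAA and 46.5% in WT. The difference at the summit base, HEAA minus WT, was 0.858 points at shared peaks (interval over sites -2.81 to 4.52), 1.21 points at HEAA-only peaks (-2.20 to 4.63) and 4.40 points at WT-only peaks (0.187 to 8.61). Where the summit was bare, H3K4me1 regions mostly flanked it within 1 kb on both sides. This was so at 236 of all 466 shared summits in HEAA (50.6%) and 237 in WT (50.9%). The bare stretch between the flanks had a median width of 466 bp in HEAA and 452 bp in WT. Of all HEAA-only summits, 40.1% in HEAA and 41.1% in WT were bare with both flanks, and of all WT-only summits 38.4% and 43.1%. These shares fall where more summits lie inside a region. Bare summits in HEAA had both flanks at 236 shared, 264 HEAA-only and 166 WT-only peaks. Only 1 flank was found at 47, 42 and 27, and no region within 1 kb at 32, 12 and 19.

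Shared peaks carried H3K4me1 less often than line-only peaks. Split by UTX, the contrast was seen at peaks without UTX and not at peaks with UTX in both lines. At the 319 shared peaks with UTX in both lines, H3K4me1 was present in 49.2% in HEAA and 48.9% in WT. The 272 HEAA-only peaks with UTX in both lines had 48.5% in each line, and the 178 such WT-only peaks 51.7% in each. At the 98 shared peaks with UTX in neither line, H3K4me1 was present in 19.4% in HEAA and 22.4% in WT, and 71.4% had it in none of the 3 lines. The 216 HEAA-only peaks without UTX had 66.2% in HEAA and 63.0% in WT, and the 152 such WT-only peaks 57.9% in HEAA and 53.9% in WT. Among the shared peaks without UTX, 42.9% had an MLL4 peak in EV, against 13.8% of shared peaks with UTX in both lines, 4.17% of HEAA-only peaks without UTX and 4.61% of WT-only peaks without UTX. MLL4 peaks called in HEAA and WT without UTX were thus often called without any UTX construct as well. The 9 HEAA peaks of fold under 3, all called in EV and without H3K4me1 in HEAA, are among these 98 shared peaks and add to the contrast. Of all shared peaks, 89 of 466 had an MLL4 peak in EV (19.1%), against 15 of 659 HEAA-only peaks (2.28%) and 11 of 432 WT-only peaks (2.55%).

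**Figure D5:**
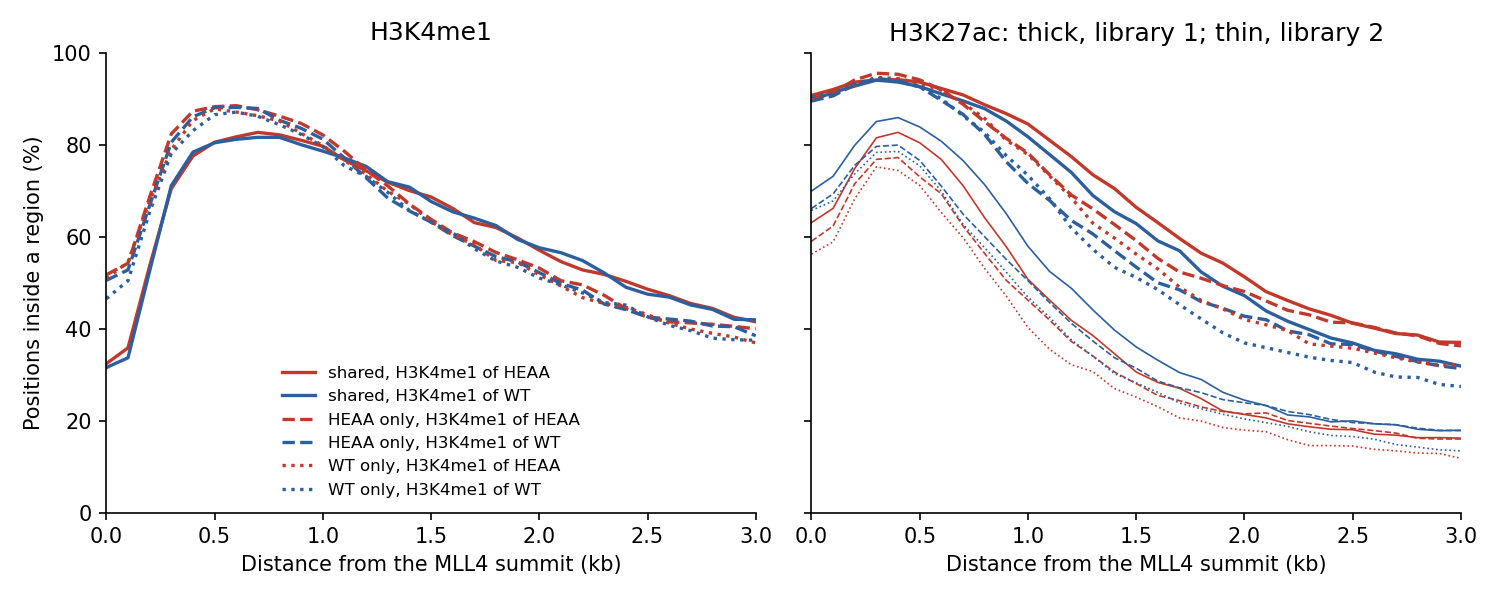
Share of positions at a given distance in kb from the MLL4 summit that lie inside an H3K4me1 region (left) or an H3K27ac region (right), both sides pooled, in HEAA (red) and WT (blue), for shared (solid), HEAA-only (dashed) and WT-only (dotted) peaks. H3K4me1 at the summit is 32.4% in HEAA and 31.5% in WT at shared peaks and about 50% at line-only peaks, with shoulders of about 80% to 88% near 0.5 kb.

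H3K27ac surrounded MLL4 peaks of every class in every line. Shared peaks were acetylated in 94.0% and 71.7% in libraries 1 and 2 of HEAA, 92.9% and 78.8% in WT, and 90.3% and 85.6% in EV. HEAA-only peaks had 92.7% and 66.5% in HEAA, 92.4% and 72.5% in WT, and 89.1% and 83.3% in EV. WT-only peaks had 93.3% and 62.5% in HEAA, 92.4% and 70.4% in WT, and 88.0% and 78.2% in EV. A line-only MLL4 peak therefore lay in acetylated chromatin about as often in the line without the peak. In HEAA and in WT the libraries of a line differed from each other by more than these lines did. The mean difference, HEAA minus WT, was -2.88 points at HEAA-only peaks, -3.47 points at WT-only peaks and -3.00 points at shared peaks. An exact two-sided permutation test over libraries gave p = 1 for each (n = 2 and 2, smallest possible p 0.333). Within replicate 1 the differences were 0.303, 0.926 and 1.07 points, and within replicate 2 -6.07, -7.87 and -7.08 points, in the same order of classes. The sign thus differed between the replicate numbers in each class as measured here. For shared peaks measured at the WT peak instead, an alternative added after seeing the data, it was negative in both, at -0.215 and -6.65 points.

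The lists themselves differed in opposite directions in the 2 library numbers. Of the merged H3K27ac regions of HEAA and WT, 22.9% were called in HEAA and not WT and 8.21% in WT and not HEAA in library 1, and 8.14% and 19.2% in library 2. Among the HEAA-only MLL4 peaks acetylated in either line, the shares were 2.09% and 1.77% in library 1 and 6.09% and 13.9% in library 2. For WT-only peaks they were 2.68% and 1.71%, and 5.59% and 16.1%. All lie below the background. Only 1 HEAA-only peak was acetylated in both HEAA libraries and neither WT library, and 2 had the reverse. No WT-only peak had either pattern. The acetylated regions around MLL4 summits were wide. In library 1 the region holding a HEAA-only summit had a median width of 4294 bp in HEAA and 3784 bp in WT, against 1013 bp and 1072 bp over all regions of those lists. The region holding a WT-only summit had 3626 bp in HEAA and 3328 bp in WT. A wide region is more likely than a narrow one to hold any given base, so part of the contrast with all regions is built in. H3K27ac was called in all 6 libraries at 66.9% of shared, 59.6% of HEAA-only and 56.0% of WT-only peaks, and in none at 4.29%, 3.19% and 3.70%.

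H3K27me3, the mark UTX removes, was at no MLL4 peak of either list. It overlapped 0 of 466 shared, 0 of 659 HEAA-only and 0 of 432 WT-only peaks in HEAA, with Wilson upper bounds of 0.818%, 0.579% and 0.881%. The counts and bounds were the same in WT, although H3K27me3 regions covered 251 Mb in HEAA and 168 Mb in WT. Over all merged H3K27me3 regions, 41.5% were called in HEAA and not WT and 17.8% in WT and not HEAA. In EV, 1 shared peak overlapped the mark. Within 500 bp of the summit, 1 HEAA-only peak had a region in HEAA and no other peak had one in HEAA or WT. UTX sites without an MLL4 peak were nearly free of the mark too, with 6 of 2296 in HEAA and 3 of 2296 in WT. A gain of H3K27me3 with the mutant at MLL4 sites was not detected in these lists, whose depth is unknown.

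The strongest line-only sites shared most of their surroundings with the opposite line. The HEAA-only peak with the highest fold lay at chr2:233250500-233250766 (12.3-fold, the twelfth highest of the HEAA list), and the nearest WT peak was 2025 kb away. It had UTX in HEAA and in WT, H3K27ac in all 6 libraries and an MLL4 peak in EV, the only one of the top 10 with the last. Next were chr7:32720257-32720581 (11.7-fold), chr16:85678914-85679160 (11.3-fold), chr9:131788866-131789112 (11.1-fold) and chr11:69894934-69895136 (10.99-fold). The others of the 10 were at chr10:75631757-75632073, chr6:148513051-148513302, chr17:25568708-25568928, chr9:137271972-137272170 and chr14:61822719-61822910. UTX was called at all 10 in HEAA and at 9 in WT, the exception being the chromosome 9 site at 131788866. H3K4me1 was present at 7 in HEAA, 6 in WT and 6 in EV, and H3K27ac in all 6 libraries at 7.

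The WT-only peak with the highest fold lay at chr2:65011878-65012313 (10.0-fold), with UTX in HEAA and WT, H3K4me1 in all lines and an MLL4 peak in EV. Next were chr12:98897172-98897427 (9.83-fold), chr5:128285927-128286166 (9.45-fold), chr16:56000108-56000312 (9.33-fold), and chr1:41365198-41365516 (9.33-fold). The others were at chr18:76822847-76823082, chr1:145397792-145398011, chr1:145556785-145557067, chr6:159331480-159331716, and chr5:2780476-2780848. UTX was called at 7 of the 10 in HEAA and at 7 in WT. The chromosome 5 site at 128285927 had it in WT alone and the chromosome 16 site in HEAA alone. The chromosome 12 site and the chromosome 1 site at 145397792 had it in neither, and both lacked H3K4me1 in all lines. A HEAA peak lay 0.822 kb from the site at 145397792. H3K4me1 was present at 5 of the 10 in HEAA, 6 in WT and 8 in EV, and H3K27ac in all 6 libraries at 6.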

How the data were processed

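ChIP-seq peak lists of UMUC1 lines were used, with groups and replicate numbers from the sample titles. MACS2 and the builds hg19 and GRCh37 are named in the submitters' processing notes, without versions, and the aligner and read filters were not given in the sources used here. Of the deposited columns, the fold enrichment is a linear ratio over the caller's background by the authors, the p-value and q-value were deposited as −log10, and the deposited score was not used. The deposited offset of the summit gave its position. The names of the MLL4 peaks hold a word for a merged input, and what was merged is not stated. Overlaps of at least 1 bp, summit distances and shares were computed with custom code in Python 3.11.15, NumPy 2.4.6 and pandas 2.3.3 (figures, matplotlib 3.10.9), tested on simulated data. Unplaced contigs were left out. Shares have 95% Wilson intervals, and differences of shares over the same sites have intervals from their discordant counts. Both cover counting error over sites only. A line-only peak overlaps no peak of the other list. Named sites are the 10 best shared sites by mean rank of fold and the 10 line-only peaks of each line with the highest fold. The 5 pairs with the largest summit distance are named too. So are 5 line-only peaks of each line with H3K4me1 in that line and not in the other of HEAA and WT, whatever EV had. H3K27ac was compared over libraries by an exact permutation test. Whether the numbered H3K27ac libraries stem from separate cultures is not labelled, so the spread behind its p-values may be technical. The members, lists and classes were chosen with earlier results of these data known. An annotation or sequence of hg19 was not used here, so sites carry no gene names. Alternatives covered the q threshold, list length, overlap rule, window, histone lists and libraries.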

Additional observations from a re-analysis of the deposited data

How the results depend on the processing

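Of 183 values recomputed under alternatives, 171 met the criterion for their kind of value. For overlap shares, summit distances and differences over sites this was the interval of the reported value. For H3K27ac it was the same sign, and for counts of named sites a factor of 1.5. Some of these values could not fail. H3K27me3 shares of 0 stay at 0 under any filter of peaks or regions, and the blocked H3K27ac differences equal the reported ones by construction. Filtering line-only peaks leaves shared peaks as they were, and sites named for high fold readily pass cuts on q or fold. The 171 is therefore not a measure of robustness. The shared share moved to 45.8% of both lists when each was cut to the length of the shorter one, and to 37.9% of HEAA and 47.4% of WT peaks when summits had to lie within 100 bp. With a minimum −log10 q of 5 for MLL4 and UTX peaks, the UTX difference, HEAA minus WT, was 9.24 points at HEAA-only peaks and -11.7 points at WT-only peaks, so both kept their sign. The median summit distance was 21 to 27 bp in every alternative run. The H3K27ac difference, HEAA minus WT, depended on single libraries. Leaving out 1 of the 4 libraries in turn, it ranged from -14.2 to 8.15 points at shared peaks, from -16.0 to 10.2 points at HEAA-only peaks and from -18.9 to 11.9 points at WT-only peaks. It was positive without HEAA library 2 (8.15, 10.2 and 11.9 points) and without WT library 1 (4.08, 7.06 and 7.52 points), and the cause was not tested. With each mark cut to equal coverage it was -4.51, -2.58 and -7.06 points at shared, HEAA-only and WT-only peaks, each with an exact permutation p of 0.333, the smallest possible, against p = 1 in the report. With the replicate number as a block the values were those of the report, -3.00, -2.88 and -3.47 points, with p = 1 by exact sign changes within pairs (smallest possible 0.5). The labels give no pairing of the numbers. Omitting the peaks of fold under 3, an alternative added after seeing the data, moved no value beyond its interval. All of these peaks were shared, so the values of the line-only classes could not change, and only the other values were put to a check. With 1 MLL4 list a line and unknown depth, the line-only classes cannot be told from differences in depth.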

Other observations

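MLL4 sites were densest on chromosome 6 between 26 and 29 Mb, a stretch chosen after its values were seen. It held 22 HEAA and 21 WT peaks, of which 7 in each list were shared. None of them had a UTX peak in its own line, while UTX of the same line lay at 66.7% of all 1125 HEAA peaks and 64.6% of all 898 WT peaks. H3K4me1 of the same line overlapped 1 of the 22 HEAA peaks and 2 of the 21 WT peaks. H3K27ac overlapped 9 of the HEAA peaks in library 1 and 1 in library 2, and 5 and 2 of the WT peaks. EV had an MLL4 peak at 2 of the HEAA and 4 of the WT peaks. The next densest 1 Mb bin outside this stretch, on chromosome 17 from 8000001 to 9000000, held 8 merged sites, of which 2 were shared, 2 HEAA-only and 4 WT-only.

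Over all chromosomes with MLL4 peaks, the nearest other MLL4 site lay at a median distance of 159 kb from a shared site, 211 kb from a HEAA-only site and 202 kb from a WT-only site, and within 10 kb at 15.5%, 13.2% and 13.2% of them.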
